A study of Mus musculus with 6 samples.

Results

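Small RNA was examined in 12 windows of the mouse genome (GRCm39) that carry well-known imprinted genes, other than the Dlk1-Meg3 domain. They are Nnat, Gnas, Peg10-Sgce, Mest, Peg3, Snrpn, Igf2-H19, Kcnq1ot1-Cdkn1c, Rasgrf1, Plagl1, Grb10 and Igf2r-Airn, and each name stands for its window and not for a transcript placed under a read. Members were the deposited genomic intervals that lay wholly inside a window, which were 2355 of 1272548, and the choice used no read count. Of these, 1887 held at least 1 read. They measured 114 to 62512 bp with a median of 798 bp, and they overlapped heavily, so that 1 read can be counted in many of them. A set of 141 non-overlapping member intervals with a read, out of 88361 such intervals over the genome, was used wherever reads were summed. It was filled from the interval with the most reads downward, members first and without regard to genotype.

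The study profiled RNA of 15 to 36 nt from C57BL/6 male germ cells, either wild type (WT) or with a knockout of Dnmt3l, called KO throughout. At postnatal day 0 (P0) enriched neonatal germ cells gave 1 WT and 1 KO library, and at postnatal day 8 (P8) THY1+ cells, a preparation rich in spermatogonial stem cells and progenitors, gave 2 WT and 2 KO libraries. The labels name no treatment, give all 6 libraries the same batch, and do not say whether the P8 replicates came from separate animals. The p-values below therefore cover the spread between these particular samples and no more, a spread that may be technical, and age cannot be told apart from the way the cells were prepared. These are bulk preparations, in which fewer cells of a type and less RNA per cell cannot be told apart. Markers of germ cells and of other testis cells, and the reads of Dnmt3l itself, were not analysed here, because the intervals carry no gene names and the annotation at hand is of another build.

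Genomic imprinting is the expression of a gene from only the maternal or only the paternal chromosome, set by DNA methylation that is laid down in one of the parental germ lines. DNMT3L has no catalytic activity of its own but assists the enzymes of de novo DNA methylation, and it is needed to set these marks, in the oocyte for most imprinted loci and in prospermatogonia for the few that are methylated on the paternal chromosome. Among the 12 loci, Igf2-H19 and Rasgrf1 take their germline mark in the male, and the other 10 take it in the oocyte, after which male germ cells erase it. The paternal mark of Rasgrf1 is further known for its link to piRNAs, the germline small RNAs in the upper part of the size range sequenced here, which guide silencing of transposons. Several imprinted domains also produce long non-coding RNAs that silence neighbouring genes, such as Kcnq1ot1, Airn and the antisense transcripts at Gnas, and some produce microRNAs.

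The annotated microRNAs of Gnas, Mest and Igf2-H19 are shown because they are annotated small RNAs of these loci in the size range sequenced. RefSeq lists all 5 of the genes looked up, each with both arms, and the 5p arms read as follows, 5′ to 3′, with the seed (bases 2 to 8) in capitals, from the RefSeq table for GRCm38.p6.
mmu-miR-296-5p (Gnas): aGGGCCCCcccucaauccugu
mmu-miR-298-5p (Gnas): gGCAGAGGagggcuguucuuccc
mmu-miR-335-5p (Mest): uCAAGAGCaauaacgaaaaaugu
mmu-miR-675-5p (Igf2-H19): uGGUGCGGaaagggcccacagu
mmu-miR-483-5p (Igf2-H19): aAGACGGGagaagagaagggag
The 10 mature forms of these genes measure 21 to 24 nt and have 10 distinct seeds, so none of them belongs to a seed family with another. In that annotation Mir335 lies within Mest, Mir675 within H19 and Mir483 within Igf2, while Mir296 and Mir298 are neighbours beside Gnas. No count is given for any of them, since the intervals are on GRCm39 and no interval was assigned to a microRNA.

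The 12 loci took a small share of the libraries. The 141 intervals covered 1091.374 kb, which is 0.159% of the length covered by the whole non-overlapping set, and held 0.0919% of its reads in WT P0, 0.0987% in KO P0, 0.0629% and 0.0613% in the WT P8 replicates, against 0.0729% and 0.0750% in KO P8. In reads this was 5623 and 4312 at P0, 3850 and 3409 in WT P8, against 3578 and 3630 in KO P8, out of 4369640 to 6119595 reads per library in the set. The share of reads was thus below the share of length in all 6 libraries, and at P8 it was higher in both KO libraries than in either WT library. Levels are given below as reads, or as CPM, reads per 1000000 reads of the set after scaling with edgeR's TMM factors over the 6 libraries. Per kilobase of covered length, the WT P8 libraries were highest at Nnat (3.05 and 2.83 CPM per kb) and Gnas (2.70 and 2.60), followed by Igf2-H19 (1.09 and 1.08) and Kcnq1ot1-Cdkn1c (0.985 and 0.990), and lowest at Plagl1 (0.0242 and 0.0374). In WT P0 the order differed, with Nnat first (2.54 CPM per kb), then Kcnq1ot1-Cdkn1c (1.23) and Rasgrf1 (0.848), while Gnas stood at 0.429. Igf2-H19 and Kcnq1ot1-Cdkn1c were the closest neighbours among the upper loci of WT P8, with both replicates of the first above both of the second, a difference that was not tested.

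**Figure D1:**
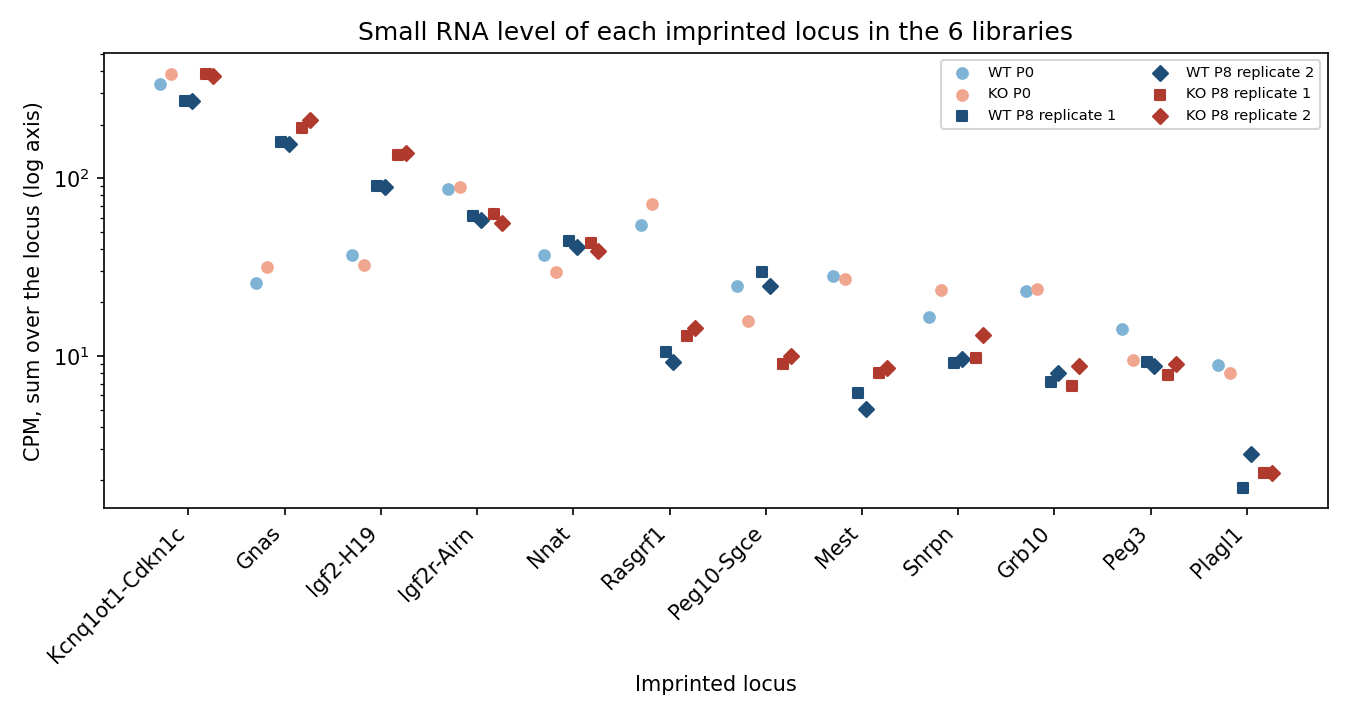
Summed level of each imprinted locus in CPM on a log axis, 1 point per library (circles for P0, squares and diamonds for the P8 replicates, blue for WT and red for KO), ordered by the mean over the 6 libraries. Gnas and Igf2-H19 are higher at P8 than at P0 in both genotypes, Rasgrf1, Mest, Grb10 and Plagl1 are lower, and only at Peg10-Sgce do both KO P8 points lie well under both WT P8 points.

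At P8 the KO cells had more small RNA from Igf2-H19 and Kcnq1ot1-Cdkn1c, about 1.51-fold and 1.38-fold, somewhat more from Gnas, and about 2.88-fold less from Peg10-Sgce. Summed over each locus, 11 of the 12 loci had enough reads to be tested with edgeR's quasi-likelihood test, adjusted by Benjamini-Hochberg (BH) over the whole table, and 3 were higher and 1 lower in KO at an adjusted p under 0.05. Over all rows of that table, 22.5% were called higher and 20.0% lower. Of the 2 paternally marked loci, 1 was called higher and 0 lower. Of the 9 maternally marked loci tested, 2 were called higher and 1 lower. The remaining 7 tested loci did not pass the test, and Plagl1, with 9 to 14 reads per P8 library, was not tested.

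Of the single non-overlapping intervals, 40 of the 141 were tested at P8, and 14 were higher and 2 lower in KO, against 22.5% higher and 20.0% lower over all 23197 intervals tested. As shares of the 40 tested members these are 35.0% higher and 5.0% lower. The median log2 fold change was 0.40 over the 40 members and -0.01 over all intervals tested. The 101 members that were not tested held 8.62% of the reads of the 12 loci. In the paternally marked loci 7 of 32 intervals were tested, of which 5 were higher and 0 lower, with a median of 0.67. Of these, 6 tested intervals and all 5 calls were in Igf2-H19, and Rasgrf1 had 1 tested and 0 called, so this list mostly reflects 1 locus. In the maternally marked loci 33 of 109 were tested, of which 9 were higher and 2 lower, with a median of 0.34. Neighbouring intervals can hold reads of 1 transcript and are not replicates of the genotype. The count of higher calls depended on the fit. It was 6 with DESeq2, where the count over all 23197 intervals also fell, from 5227 to 3197. It fell as well with any 1 P8 library left out, and so did the count over all intervals. The count of lower calls was 1 with DESeq2, beside a fall from 4650 to 2440 over all intervals. Without WT P8 replicate 1 both of these counts of lower calls fell too. Fits with a library left out keep 1 library in a group.

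**Figure D2:**
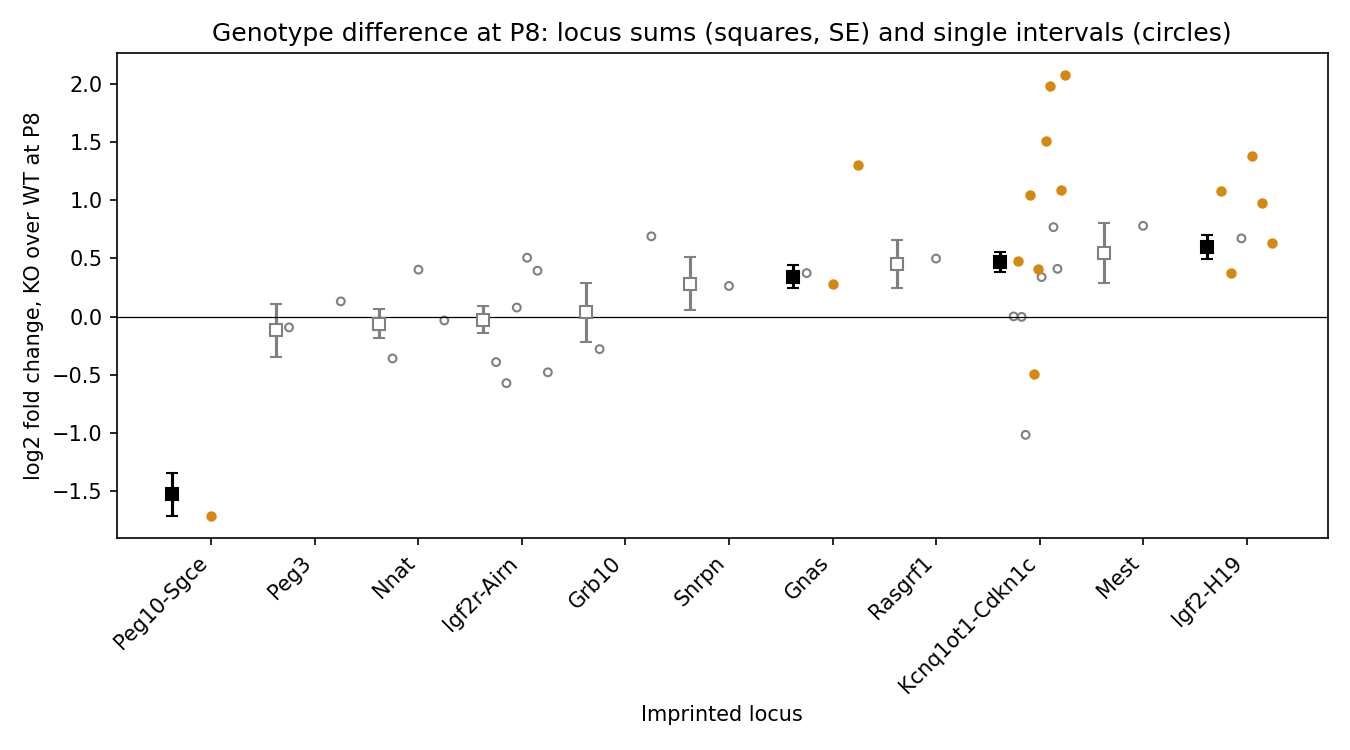
Log2 fold change of KO over WT at P8 for the 11 tested loci, ordered by the locus sum (squares with standard errors, black where the adjusted p is under 0.05) and for their 40 tested intervals (circles, filled where called). The Igf2-H19 circles all lie above 0, those of Kcnq1ot1-Cdkn1c spread from -1.02 to 2.07, and Peg10-Sgce has 1 tested interval at -1.71.

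Igf2-H19 (window chr7:142.10-142.26 Mb) pairs the gene of a fetal growth factor, Igf2, with the growth-limiting non-coding RNA H19, and its control region is methylated on the paternal chromosome. The locus sum was 90.1 and 88.9 CPM in the WT P8 libraries against 134 and 138 CPM in the KO P8 libraries. Both KO values lay far above both WT values, and the log2 fold change was 0.60 (SE 0.10, n = 2 and 2, edgeR quasi-likelihood test with BH adjustment, adjusted p = 0.000545). Of the 6 tested intervals of the locus 5 were called higher, where 22.5% of all intervals tested were. All 6 had both KO libraries above both WT libraries, but the share of all intervals with this order was not computed.

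The Igf2-H19 interval chr7:142211352-142215256 held 50 and 45 reads in WT P8 against 70 and 78 in KO P8. The P0 libraries had 12 reads (WT) and 6 (KO). Scaled to library size, the P8 groups did not overlap and the log2 fold change was 0.98 (SE 0.19, edgeR with BH adjustment, adjusted p = 0.00158), a call kept without any 1 library. Beside it, chr7:142217663-142229116 held 149 and 120 reads in WT P8, 168 and 160 in KO P8, 83 in WT P0 and 28 in KO P0. Its P8 log2 fold change was 0.63 (SE 0.14, edgeR adjusted p = 0.00287), and without WT P8 replicate 2 it was 0.52 with an adjusted p of 0.0609. At P0 the same interval was lower in KO, 0.474 of WT (95% counting interval 0.297 to 0.735), so the direction at P0 was opposite to that at P8.

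The interval with the most reads of Igf2-H19, chr7:142122213-142131831, rose least among the called ones. It held 205 and 198 reads in WT P8, 199 and 213 in KO P8, 70 in WT P0 and 58 in KO P0. Its log2 fold change was 0.37 (SE 0.12, edgeR adjusted p = 0.0284), and the call was lost without WT P8 replicate 1 (adjusted p = 0.199), WT P8 replicate 2 (0.120) or KO P8 replicate 2 (0.109), with DESeq2 (0.195), when total counts replaced the TMM factors (0.0726), with no filter on low counts (0.113) and in a fit of the 4 groups to all 6 libraries (0.0844). The other 2 called intervals were under 10 CPM, chr7:142103946-142119135 at 1.08 and chr7:142190751-142200522 at 1.38 on the log2 scale.

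Rasgrf1 (window chr9:89.75-89.93 Mb), the other paternally marked locus, encodes an exchange factor that activates Ras proteins. Its sum was 10.6 and 9.23 CPM in WT P8 against 12.9 and 14.3 CPM in KO P8. The 2 KO values were above the 2 WT values, but the log2 fold change of 0.45 (SE 0.21) did not pass the test (edgeR with BH adjustment, adjusted p = 0.102). Most of its reads, 72.3%, were in chr9:89752212-89784318, with 352 and 258 reads at P0, 44 and 34 in WT P8, against 38 and 49 in KO P8. The edge of the window matters for this locus: 7 deposited intervals cross it, and the highest count in any of them, taken library by library, was 606 at P0 in WT and 1063 in KO, more than the 443 and 413 reads of the members themselves. At P8 this highest count was 201 and 231 in WT against 114 and 166 in KO, above the 46 to 59 reads of the members and lower in KO, unlike their sum. At Mest, Peg3, Plagl1 and Grb10 such counts were also not small beside the member sums. In WT P8 against KO P8 they were 24 and 24 against 11 and 15 at Mest, lower in KO, unlike its sum. They were 51 and 25 against 17 and 18 at Peg3, 9 and 4 against 12 and 10 at Plagl1, and 27 and 23 against 9 and 23 at Grb10.

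Kcnq1ot1-Cdkn1c (window chr7:142.75-143.35 Mb) is the largest source of reads among the 12 loci. Its long non-coding RNA Kcnq1ot1 silences neighbouring genes on the paternal chromosome, among them the cell cycle inhibitor Cdkn1c, and the control region is methylated in the oocyte. The sum was 271 and 273 CPM in WT P8 against 382 and 374 CPM in KO P8. The replicates lay close together and the genotypes apart, with a log2 fold change of 0.47 (SE 0.08, n = 2 and 2, edgeR with BH adjustment, adjusted p = 0.000698). Of its 41 non-overlapping intervals 14 were tested, and 7 were higher and 1 lower, where 22.5% of all intervals tested were higher and 20.0% lower.

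Within Kcnq1ot1-Cdkn1c the intervals did not move as 1 block. The clearest difference was at chr7:143156786-143180606, with 101 and 113 reads in WT P8, 267 and 216 in KO P8, 490 in WT P0 and 392 in KO P0. The P8 log2 fold change was 1.51 (SE 0.15, edgeR with BH adjustment, adjusted p = 7.66e-06), and WT P8 was the lowest of the 4 groups. This interval took 17.9% and 17.6% of the locus reads at P0, 6.78% and 8.32% in WT P8, but 17.0% and 14.1% in KO P8, so that the KO P8 share was nearer to that of P0.

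Both chr7:143302032-143332764 and chr7:142991322-143020152 showed a difference of about 2-fold. The first held 89 and 66 reads in WT P8, 103 and 157 in KO P8, 377 in WT P0 and 154 in KO P0, with a log2 fold change of 1.09 (SE 0.21, edgeR with BH adjustment, adjusted p = 0.00127). The second had 44 and 41 reads in WT P8, 83 and 56 in KO P8, 208 in WT P0 and 130 in KO P0, with a log2 fold change of 1.05 (SE 0.23, edgeR adjusted p = 0.00329). In each the 2 KO libraries were above the 2 WT libraries after scaling, with KO replicates that lay further apart than the WT ones, and without any 1 library both stayed called. With no filter on low counts the second had an adjusted p of 0.0537.

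The interval with the most reads of Kcnq1ot1-Cdkn1c was chr7:142805483-142827951, with 254 and 214 reads in WT P8, 268 and 245 in KO P8, 975 in WT P0 and 1030 in KO P0. Its log2 fold change was 0.47 (SE 0.12, edgeR with BH adjustment, adjusted p = 0.00673). The call was lost without WT P8 replicate 2 (0.39, adjusted p = 0.101) with DESeq2 (adjusted p = 0.0525) and with no filter on low counts (0.0516). Nearly all its reads at P0 came from 1 deposited interval inside it, chr7:142822386-142824735 of 2350 bp, which held 97.4% of them in WT P0 and 97.2% in KO P0, and 57.1%, 60.7%, 75.4% and 76.3% in WT P8 replicates 1 and 2 and KO P8 replicates 1 and 2. This core held 145 and 130 reads in WT P8 against 202 and 187 in KO P8. Its log2 fold change was 0.71 (edgeR with BH adjustment over every deposited interval, adjusted p = 0.000642). That fit has its own library sizes and TMM factors. On the scale of the non-overlapping set, the pooled KO to WT ratio was 1.80 in the core and 1.40 in the whole interval. The P8 difference was thus larger in the core than in the interval around it, and without any 1 library it stayed called, in alternatives chosen after seeing the data.

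The next 2 intervals of Kcnq1ot1-Cdkn1c were called by narrow margins. At chr7:143084790-143094163 there were 271 and 310 reads in WT P8 against 286 and 325 in KO P8 (log2 fold change 0.41, SE 0.13, edgeR adjusted p = 0.0271), which was lost without WT P8 replicate 1 (adjusted p = 0.310) or KO P8 replicate 2 (0.0819), with total counts (0.0677), DESeq2 (0.1), no filter (0.186) and the 4-group fit (0.107). The lower one was chr7:143067501-143069092, with 140 and 103 reads in WT P8 against 67 and 69 in KO P8 (log2 fold change -0.49, SE 0.17, edgeR adjusted p = 0.0378). Its call was lost without WT P8 replicate 1 (adjusted p = 0.255), KO P8 replicate 1 (0.0820) or KO P8 replicate 2 (0.0540), with DESeq2 (0.264), no filter (0.176) and the 4-group fit (0.0724). The 2 called intervals under 10 CPM, chr7:143231579-143232678 and chr7:143334780-143335122, had log2 fold changes of 1.98 and 2.07 on 3 and 8 against 17 and 18 reads, and 2 and 5 against 10 and 14 reads.

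Gnas (window chr2:174.10-174.22 Mb) encodes the alpha subunit of the stimulatory G protein, from a complex locus with several imprinted sense and antisense transcripts. The sum was 161 and 155 CPM in WT P8 against 191 and 211 CPM in KO P8. Both KO libraries were above both WT libraries, with a log2 fold change of 0.34 (SE 0.10, edgeR with BH adjustment, adjusted p = 0.0158). Without WT P8 replicate 1 the adjusted p was 0.0927, without WT P8 replicate 2 it was 0.147, and without KO P8 replicate 2 it was 0.0616, so the call for the sum rests on having all of these libraries. It was also lost with no filter on low counts (0.0652) and in the 4-group fit (0.0588).

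One interval, chr2:174128578-174142547, held most of the Gnas reads at P8, 94.6% and 92.7% in WT and 89.7% and 90.4% in KO. It had 834 and 716 reads in WT P8, 704 and 784 in KO P8, 48 in WT P0 and 52 in KO P0. Its own difference was small, a log2 fold change of 0.28 (SE 0.10, edgeR adjusted p = 0.0424), and was lost when total counts replaced TMM (0.20, adjusted p = 0.121), with DESeq2 (0.0977), no filter (0.127) and the 4-group fit (0.127), and without WT P8 replicate 1 (0.140), WT P8 replicate 2 (0.272) or KO P8 replicate 2 (0.185).

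Inside that interval, however, 2 deposited intervals that overlap by 438 bp moved in opposite directions. These were singled out after their values were seen, from a test on every deposited interval, in which 420 of the 2355 members were tested and 107 were higher and 15 lower (22.9% and 21.0% of all deposited intervals tested). The shorter, chr2:174133150-174134951 of 1802 bp, held 279 and 231 reads in WT P8 against 97 and 134 in KO P8, and its log2 fold change was -0.93 (edgeR with BH adjustment, adjusted p = 0.000341). The longer, chr2:174134514-174142306 of 7793 bp, held 475 and 409 reads in WT P8 against 561 and 615 in KO P8, and its log2 fold change was 0.62 (edgeR adjusted p = 0.000401). This fit has its own library sizes and TMM factors. On the scale of the non-overlapping set, the pooled KO to WT ratio was 0.577 in the shorter interval and 1.69 in the longer. In neither did the P8 groups overlap, and without any 1 library each stayed called. The shorter one had 0 reads at P0 in WT and 2 in KO. Against a floor of 3 reads in the WT P0 library its WT P8 level was at least 131-fold higher, while the longer one, with 47 and 48 reads at P0, was 14.5-fold higher in WT P8 than in WT P0.

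**Figure D3:**
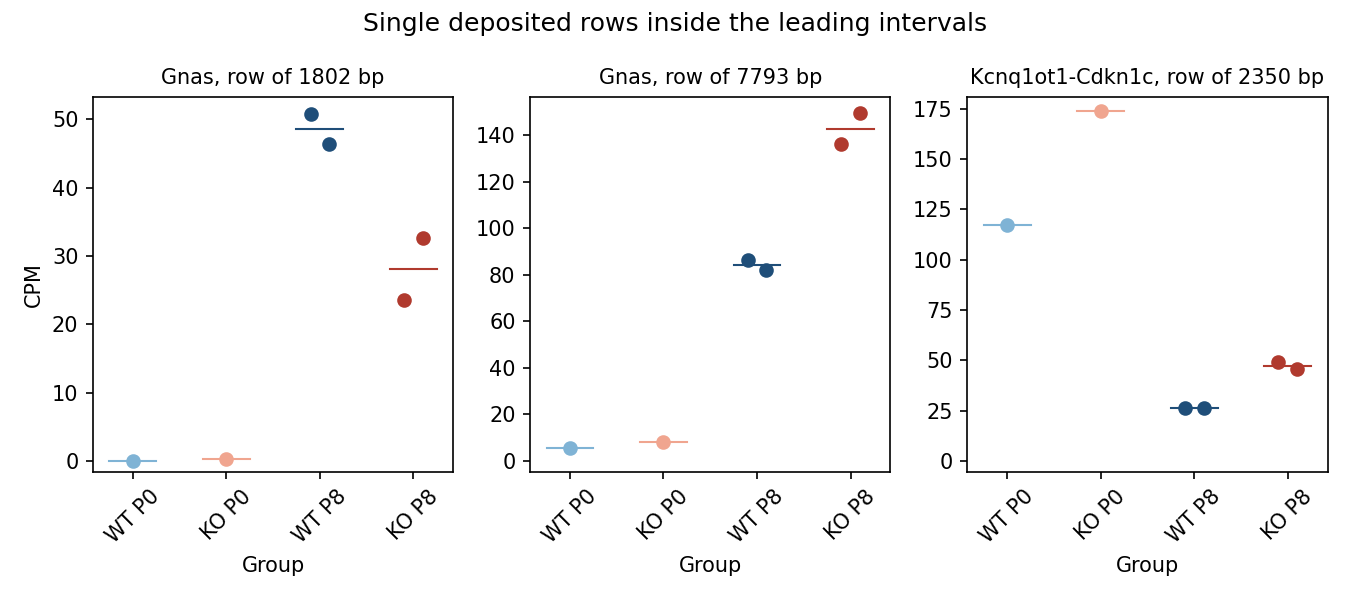
Level in CPM of 3 single deposited intervals in each library (points, with a line at the group's mean), each panel with its own linear axis from 0. The Gnas interval of 1802 bp is almost empty at P0 and lower in KO P8 than in WT P8, its neighbour of 7793 bp is higher in KO P8, and the Kcnq1ot1-Cdkn1c interval of 2350 bp is highest at P0 and higher in KO at both ages.

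A second Gnas interval, chr2:174154742-174186827, had the reverse age pattern and a larger genotype difference. It held 26 and 34 reads in WT P8, 61 and 56 in KO P8, 135 in WT P0 and 119 in KO P0. The P8 log2 fold change was 1.30 (SE 0.24, edgeR with BH adjustment, adjusted p = 0.000925), with no overlap between genotypes, and no 1 library ended the call. It took 65.2% and 65.0% of the Gnas reads at P0 but 2.95% and 4.40% in WT P8 against 7.77% and 6.46% in KO P8.

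Peg10-Sgce (window chr6:4.65-4.82 Mb) holds Peg10, a gene derived from a retrotransposon and needed for the placenta, and Sgce, which encodes a sarcoglycan, both expressed from the paternal chromosome. It was the only locus whose sum was called lower, at 29.5 and 24.9 CPM in WT P8 against 8.99 and 9.97 CPM in KO P8. The genotypes stood far apart, with a log2 fold change of -1.53 (SE 0.19, edgeR with BH adjustment, adjusted p = 3.65e-05). The difference lay in 1 interval, chr6:4733334-4738174, with 150 and 113 reads in WT P8, 29 and 34 in KO P8, 122 in WT P0 and 47 in KO P0 (log2 fold change -1.71, SE 0.20, edgeR adjusted p = 2.79e-05). No left-out library ended either call.

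The reads of that Peg10-Sgce interval may be narrowed by its neighbours, if overlapping intervals count the same reads. The strand of the intervals and the rule for a read at an interval's end are not given. A deposited interval that overlaps its left end and stops at position 4734877 held 2 reads in WT P0 and at most 3 in any library. One that overlaps its right end from position 4737542 held 0 reads in all 6. On that assumption nearly all reads lay in or across the ends of the 2664 bp between. The sum depends on which interval of the overlapping group is kept. With the longest interval taken first, the interval of 10484 bp at the left displaced the one with the reads, and the sum then had a log2 fold change of -0.45 (edgeR adjusted p = 0.420). At P0 the sum was likewise lower in KO, 0.639 of WT (95% counting interval 0.493 to 0.823), and 0.839 with the longest interval first.

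Beside Rasgrf1, 6 tested loci showed no genotype difference past the threshold at P8. Mest (chr6:30.70-30.78 Mb), which encodes an alpha/beta hydrolase fold protein, was at 6.19 and 5.02 CPM in WT P8 against 8.02 and 8.51 CPM in KO P8 (log2 fold change 0.54, SE 0.26, edgeR adjusted p = 0.114). Snrpn (chr7:59.30-59.85 Mb), the gene of a splicing protein beside a large domain of small nucleolar RNAs, was at 9.10 and 9.64 CPM in WT P8 against 9.72 and 13.1 CPM in KO P8 (log2 fold change 0.28, SE 0.23, adjusted p = 0.352, edgeR with BH adjustment). In both, as in Rasgrf1, each KO library was above each WT library with the TMM factors, without passing the test. In Snrpn the margin was narrow, 9.72 against 9.64 CPM. With total counts, its KO P8 replicate 1 (40 of 4907892 reads) was below both WT libraries (50 of 6119595 and 48 of 5561592).

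Nnat, Igf2r-Airn, Peg3 and Grb10 had overlapping genotypes, with adjusted p-values from 0.709 to 0.925 (edgeR with BH adjustment). Nnat (chr2:157.38-157.43 Mb), a gene of a small proteolipid of the endoplasmic reticulum, was at 44.2 and 41.0 CPM in WT P8 against 43.3 and 38.9 CPM in KO P8 (log2 fold change -0.06, SE 0.13). Igf2r-Airn (chr17:12.65-13.05 Mb), where the non-coding RNA Airn silences the receptor gene Igf2r, was at 61.3 and 58.4 CPM in WT P8 against 62.5 and 55.7 CPM in KO P8 (-0.03, SE 0.12). Peg3 (chr7:6.68-6.76 Mb), a zinc finger gene, had 51 and 44 reads in WT P8 (9.28 and 8.83 CPM) against 32 and 37 reads in KO P8 (-0.12, SE 0.23). None of these 3 loci had a fold change beyond its own SE. Grb10 (chr11:11.85-12.05 Mb), the gene of an adaptor that restrains insulin and growth factor signalling, was at 7.10 and 8.03 CPM in WT P8 against 6.80 and 8.75 CPM in KO P8 (0.04, SE 0.25). Plagl1 (chr10:12.90-13.05 Mb), a zinc finger gene, had 10 and 14 reads in WT P8 against 9 and 9 in KO P8. Its KO to WT ratio was 0.955, with a 95% counting interval from 0.488 to 1.84, which covers counting error on the pooled reads and not the spread between libraries.

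Reads were concentrated in these loci too, since the leading interval of each locus, the one with the highest mean CPM over the 6 libraries, took between 27.3% (Kcnq1ot1-Cdkn1c) and 84.9% (Gnas) of its reads. In Mest it was chr6:30722036-30748785, with 135 and 77 reads at P0, 21 and 18 in WT P8, against 26 and 27 in KO P8. Its log2 fold change of 0.78 (SE 0.30, edgeR adjusted p = 0.0511) was just short of the threshold, with all KO values above all WT values after scaling. In Igf2r-Airn it was chr17:12973302-12985835, with 237 and 144 reads at P0, 87 and 74 in WT P8, against 84 and 83 in KO P8 (log2 fold change 0.39, SE 0.17, edgeR adjusted p = 0.0788). The next interval of that locus by reads, chr17:12997951-13029358, had 135 and 114 reads in WT P8 against 88 and 53 in KO P8 (-0.48, SE 0.21, adjusted p = 0.0838, edgeR). These 2 Igf2r-Airn intervals differed in sign and neither passed the test, beside a locus sum near 0.

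In Nnat the leading interval, chr2:157402956-157411179, had 251 and 147 reads at P0, 165 and 165 in WT P8, against 130 and 125 in KO P8 (log2 fold change -0.03, SE 0.13). In Peg3 it was chr7:6730943-6747068, with 76 and 32 reads at P0 and 19 to 26 in every P8 library, and in Grb10 chr11:11872471-11916542, with 55 and 62 reads at P0 and 14 to 33 at P8. In raw reads another Grb10 interval, chr11:11968184-11999042, held more, with 122 and 70 at P0 and 2 to 12 at P8. In Plagl1 it was chr10:12957907-12976876, with 42 and 26 reads at P0 and 1 to 6 at P8. At the 4 leading intervals the genotypes overlapped at P8.

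In Snrpn, 64.6% of the reads were in an interval of 322 bp, chr7:59805323-59805644, which held 64 reads in WT P0, 80 in KO P0, 36 and 43 in WT P8, against 29 and 46 in KO P8. Of 70 deposited intervals that overlap it, the 63 that end at or before position 59805620 held at most 14 WT P0 reads. The 7 that end at position 59805624 or later held at least 64. The ends differ by 4 bp. How a read at an interval's end was counted is not given, so this does not place the reads exactly. The genotypes overlapped at P8 in this interval, with a log2 fold change of 0.26 (SE 0.28, edgeR adjusted p = 0.480).

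At P0 there was 1 library per genotype and hence no test, and ratios of scaled reads are given with exact conditional binomial 95% intervals that cover counting error only, since the reads carry no molecular identifiers and are not independent molecules. No locus sum differed 2-fold or more between KO and WT. Over all intervals with at least 100 reads at P0 the median log2 ratio of KO over WT was -0.22 on this scale. A typical interval thus lay below 1, and the loci are sorted here against 1 and not against that median. Below 1 were Peg10-Sgce (above), Peg3 at 0.672 (0.478 to 0.934) and Nnat at 0.806 (0.664 to 0.976). Above 1 were Snrpn at 1.42 (1.11 to 1.81), Rasgrf1 at 1.31 (1.14 to 1.5), Gnas at 1.24 (1.01 to 1.52) and Kcnq1ot1-Cdkn1c at 1.14 (1.08 to 1.21). The intervals of Igf2-H19 at 0.868, Mest at 0.966, Plagl1 at 0.898, Grb10 at 1.02 and Igf2r-Airn at 1.03 included 1. For Rasgrf1 the ratio was 1.005 when intervals were chosen without giving members precedence over overlapping intervals outside the window.

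Of the 25 member intervals with at least 100 reads over the P0 libraries, 2 stood 2-fold or more higher in KO and 2 stood 2-fold or more lower. Over the whole set of 14108 such intervals, 8.43% were this much higher and 6.20% this much lower. The higher ones were chr9:89927083-89928331 in Rasgrf1, with 42 reads in WT and 128 in KO, a ratio of 4.28 (3.00 to 6.22), and chr17:12785482-12792191 in Igf2r-Airn, with 78 and 141 reads, a ratio of 2.54 (1.91 to 3.39). The lower ones were the Igf2-H19 interval chr7:142217663-142229116 described above and chr7:142961413-142987230 in Kcnq1ot1-Cdkn1c, with 79 reads in WT and 24 in KO, a ratio of 0.427 (0.258 to 0.681). At P8 that Kcnq1ot1-Cdkn1c interval had 16 and 15 reads in WT against 7 and 5 in KO, a log2 fold change of -1.02 that did not pass the test (SE 0.43, edgeR adjusted p = 0.0766). Both higher intervals were nearly empty at P8, with 2 to 7 reads per library.

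**Figure D4:**
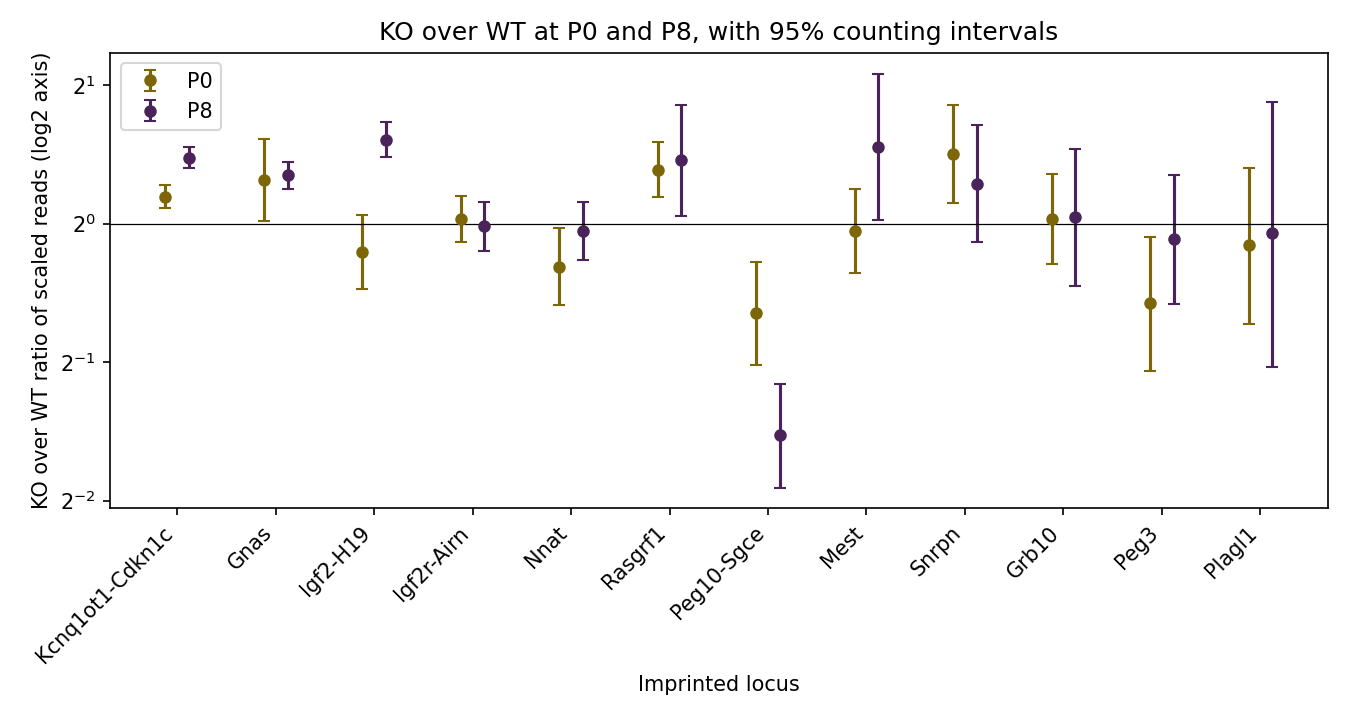
Ratio of scaled reads, KO over WT, for each locus at P0 (1 library each) and P8 (2 libraries each, reads pooled), on a log2 axis with 95% counting intervals. Igf2-H19 lies at 0.868 at P0 and 1.52 at P8, Peg10-Sgce at 0.639 and 0.347, Kcnq1ot1-Cdkn1c at 1.14 and 1.39, and Igf2r-Airn at 1.03 and 0.985.

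The levels at P0 and P8 were compared within each genotype. In a fit to all 6 libraries, in which each P0 group of 1 library is assumed to vary like the P8 pairs, 3 loci were higher and 6 lower at P8 than at P0 in WT, and 3 higher and 7 lower in KO (edgeR with BH adjustment). Over all rows 29.4% were called higher and 38.6% lower with age in WT, and 26.4% and 31.3% in KO, so most rows of the table were called in WT as well. With DESeq2 2 loci were higher and 3 lower in each genotype. The count of lower calls over all rows fell as well, from 14490 to 5804 in WT and from 11748 to 4647 in KO. That of higher calls fell from 11064 to 6146 and from 9910 to 5234. When WT P8 replicate 1 or 2 was left out, fewer loci were called, and so were fewer rows over the whole table. The scaling matters for this contrast: the median log2 difference over all rows in WT was -0.47 with TMM and -1.21 with total counts, and in KO -0.27 and -0.95.

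Gnas and Igf2-H19 were the loci that rose with age under both scalings. Gnas went from 25.6 CPM in WT P0 to 161 and 155 in WT P8 and from 31.7 in KO P0 to 191 and 211 in KO P8, log2 differences of 2.82 (SE 0.14, edgeR adjusted p = 2.2e-06) and 2.70 (SE 0.14, adjusted p = 3.46e-06), and 2.06 and 2.02 with total counts. Igf2-H19 went from 37.2 to 90.1 and 88.9 CPM in WT and from 32.3 to 134 and 138 CPM in KO, log2 differences of 1.46 (SE 0.13, edgeR adjusted p = 3.89e-05) and 2.12 (SE 0.13, adjusted p = 8.7e-06), and 0.71 and 1.43 with total counts. Nnat was the third, at 0.40 in WT and 0.51 in KO, but with total counts its direction turned, to -0.35 and -0.17, and neither call held when WT P8 replicate 1 or 2 was left out (adjusted p = 0.0727 to 0.146).

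Rasgrf1, Mest, Grb10 and Plagl1 fell in both genotypes. Rasgrf1 went from 54.7 CPM in WT P0 to 10.6 and 9.23 in WT P8 and from 71.7 in KO P0 to 12.9 and 14.3 in KO P8, log2 differences of -2.27 (SE 0.16, edgeR adjusted p = 1.28e-05) and -2.35 (SE 0.16, adjusted p = 1.29e-05). Mest changed by -2.12 in WT and -1.66 in KO, and Grb10 by -1.43 and -1.56. The values of Plagl1 were -1.75 and -1.81, and its calls were lost with DESeq2 (adjusted p = 0.169 and 0.147) and with the longest interval first (-1.08 and -0.61, edgeR adjusted p = 0.0764 and 0.342). Snrpn (-0.63 in WT, -0.99 in KO) and Igf2r-Airn (-0.34 and -0.55) were also called lower in both, but neither locus kept its calls when WT P8 replicate 1 or 2 was left out (adjusted p = 0.0658 to 0.207) or with DESeq2 (0.0527 to 0.407). Relative to the median of all rows with TMM, Rasgrf1 stood at -1.80 in WT and -2.08 in KO, Snrpn at -0.16 and -0.72, and Igf2r-Airn at 0.12 and -0.28, so that Igf2r-Airn was above the median in WT.

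Peg10-Sgce was called lower with age in KO (-0.69, edgeR adjusted p = 0.0312) and not in WT (0.33, adjusted p = 0.123), and the KO call was lost without WT P8 replicate 1 (0.0677), WT P8 replicate 2 (0.0682) or KO P8 replicate 1 (0.0601), with DESeq2 (0.238) and with no filter (0.0683). The WT direction turned with total counts (-0.42, adjusted p = 0.0546) and with the longest interval first (-1.65, adjusted p = 0.00132), while the KO values were then -1.38 and -1.97 (edgeR). Kcnq1ot1-Cdkn1c (-0.12 in WT and 0.01 in KO) and Peg3 (-0.46 and -0.14) were not called. With total counts both were called lower in each genotype, Kcnq1ot1-Cdkn1c at -0.87 and -0.68 and Peg3 at -1.21 and -0.83.

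Whether the genotype difference itself changed with age was tested as an interaction. Of the 12 locus sums, 0 were called (edgeR quasi-likelihood test with BH adjustment), with 2 at an unadjusted p under 0.05, and with DESeq2 0 were called and 0 had such an unadjusted p. Over all 37581 rows edgeR called 5.18% higher and 2.53% lower. DESeq2 called 746 of the same rows higher and 498 lower, and gave 14994 of them an adjusted p. The 2 loci nearest the threshold were Igf2-H19, whose log2 genotype difference was larger at P8 by 0.66 (SE 0.17, adjusted p = 0.0668, edgeR), and Peg10-Sgce, at -1.02 (SE 0.28, adjusted p = 0.0766). Both loci were called without either KO P8 library, and neither was called without either WT P8 library. In the fits without a WT P8 library nothing in the whole table was called, so they cannot single out these 2 loci. The Peg10-Sgce value was -0.93 and -1.09 without KO P8 replicate 1 and 2. It was -0.88 and -1.14 without WT P8 replicate 1 and 2. All of these fits keep 1 library in a P8 group. With the longest interval first the Peg10-Sgce value was -0.32 (edgeR adjusted p = 0.769), and Igf2-H19 was called (0.85, adjusted p = 0.0409).

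Among single intervals, 3 of 61 tested members had an interaction call, all higher (edgeR with BH adjustment). Of all intervals tested, 5.15% were called higher and 2.51% lower, so the members' share of higher calls was close to the general one. The 3 members were chr7:142217663-142229116 in Igf2-H19 and chr7:143156786-143180606 and chr7:143302032-143332764 in Kcnq1ot1-Cdkn1c. None of the 3 calls held without WT P8 replicate 1 or replicate 2. Those fits keep 1 WT library at P8, and nothing in the whole table was called in them. They therefore cannot tell whether these 3 intervals are less steady than others.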

How the data were processed

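Small RNA of 15 to 36 nt from 6 libraries was analysed. The authors deposited raw read counts per genomic interval, per the file headers, and log2 CPM of the P8 libraries; the latter equal edgeR's log2 CPM with TMM factors and a prior count of 2 to within 4.8e-14, and were used for that check alone. Tools named in the submitters' processing notes are FastQC 0.10.1, cutadapt 1.13, Bowtie 1.1.1, TopHat2 2.1.1 and bedtools, with build GRCm39. Which step each served, where the intervals come from and how multi-mapping reads were placed is not given in the sources used here, and the last of these can set an interval's level.

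Non-overlapping intervals were chosen from the whole table by mean CPM over the 6 libraries, member intervals first. The P8 genotypes were tested with edgeR 4.0.16 under R 4.3.3 (filterByExpr, TMM, glmQLFit, glmQLFTest, two-sided) on the P8 libraries, with BH adjustment over the whole table and a threshold of 0.05. For locus sums the 12 sums took the place of their intervals. Residual degrees of freedom were 2 at P8 with 9.98 prior ones, at a biological coefficient of variation of 10.9%. A standard error is the size of a log2 fold change over the square root of its F. Age and interaction contrasts used 1 fit to the 4 groups. The 2 WT P8 libraries (chi-square per degree of freedom 2.72) and the 2 KO P8 libraries (3.12) each differed by more than counting noise, so none was treated as a library deposited again. This does not show that they are biological replicates.

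Named intervals are the one with the highest mean CPM in each locus, and the 10 highest and 10 lowest called P8 changes with a mean of at least 10 CPM and non-overlapping genotypes; the naming of intervals by microRNA or snoRNA was not analysed here, since the annotation at hand is of GRCm38. Members, lists and tests were chosen with earlier results of these data known. Alternatives were total counts in place of TMM, DESeq2 1.42.0, no filter, each P8 library left out, the longest interval first, no precedence for members, a replicate block, a 4-group fit and every deposited interval.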

Additional observations from a re-analysis of the deposited data

Results flagged for a closer look

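In the test of the genotype difference at P8 against that at P0, 3 of 61 tested members had an adjusted p under 0.05 (edgeR, BH adjustment). All 3 were higher, where 5.15% of all intervals tested were called higher and 2.51% lower. The members' share of higher calls was thus close to that of all intervals. The Igf2-H19 interval chr7:142217663-142229116 had a log2 difference of 1.56 between the ages (adjusted p = 0.0208), being lower in KO at P0 and higher in KO at P8. The Kcnq1ot1-Cdkn1c interval chr7:143302032-143332764 had a log2 difference of 1.75 (edgeR adjusted p = 0.0268) with the same turn of direction, from 0.574 of WT at P0 (95% counting interval 0.473 to 0.694). The Kcnq1ot1-Cdkn1c interval chr7:143156786-143180606 had a log2 difference of 1.2 (edgeR adjusted p = 0.0303), being at 1.12 of WT at P0 and 2.85-fold higher in KO at P8. The P0 side of each rests on 1 library per genotype. Without WT P8 replicate 1 or WT P8 replicate 2 the 3 calls were lost. Nothing in the whole table was called in those fits, which keep 1 WT library at P8, so they cannot single out these 3 intervals. With DESeq2 0 member intervals were called and 3 had an unadjusted p under 0.05. Over all 37630 intervals DESeq2 called 746 higher and 499 lower, and gave 15014 of them an adjusted p. These alternatives were chosen after seeing the data.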

How the results depend on the processing

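Member intervals called higher in KO at P8 numbered 14, and 6 with DESeq2, 5 with no filter on low counts, 7 to 12 with 1 library left out and 107 among every deposited interval. The count of higher calls over all intervals fell too, from 5227 to 3197 with DESeq2 and to 3516 with no filter. It also fell with any 1 P8 library left out, in fits that keep 1 library in a group. These falls therefore do not single out the members. The 107 were among 420 deposited members tested, where 22.9% of all deposited intervals tested were higher. Member intervals called lower numbered 2, beside 4650 over all intervals. They numbered 1 with DESeq2 (2440 over all), with no filter (2351), with the longest interval first (4500) and in the 4-group fit (3824). With 1 library left out the number did not rise. Among the overlapping deposited intervals 15 members were lower, against 21.0% of all. With the longest interval first, 0 locus sums were lower at P8, and the age difference of Peg10-Sgce in WT turned to -1.65, because another interval stood in for the one with the reads. With DESeq2, 3 sums were lower with age in WT and 3 in KO, beside falls over all rows from 14490 to 5804 and from 11748 to 4647. With 1 library left out the number of lower sums in KO did not rise, and the count over all rows fell. The interaction of sums had 1 higher call (Igf2-H19) with total counts, with the longest interval first and with no precedence for members. With 1 library left out the calls depended on which one, and without WT P8 replicate 1 or 2 nothing in the whole table was called. Total counts turned the age differences of Nnat to -0.35 in WT and -0.17 in KO, and that of Kcnq1ot1-Cdkn1c in KO to -0.68 (adjusted p = 0.000109, edgeR).

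The labels do not say what same-numbered P8 libraries share, and their deviations from the group means correlated at 0.242 over 14657 intervals. With the replicate number as a block, 15 member intervals were higher and 3 lower. The counts over all 23197 intervals rose too, from 5227 to 5714 higher and from 4650 to 5299 lower. In these block fits 3 sums were higher and 1 lower, and the Mest interval chr6:30722036-30748785 was called (0.78, edgeR adjusted p = 0.0406). Reads per locus limit what can be seen: 101 of 141 intervals had too few for a test, and P0 has no replicate.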
